A study of Rattus norvegicus with 64 samples.

Results

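Serotonin (5-hydroxytryptamine) receptor genes were followed through postnatal development of the rat entorhinal cortex. The genes were taken by symbol, without use of their levels: the 10 genes Htr1a, Htr1b, Htr1d, Htr1f, Htr2a, Htr2c, Htr3a, Htr4, Htr6 and Htr7, of 17260 genes in the count files. Ribosome-depleted total RNA was sequenced from Long Evans rats without a labelled treatment, from layer II (LII) and the deep layers (LDeep) of the medial (MEC) and lateral (LEC) entorhinal cortex. Rats were aged postnatal day 2 (P2), 9 (P9), 23 (P23) or 45 (P45), and each of the 16 combinations of region, layer and age had 5, 4, 3 and 4 replicates at these ages in turn, 64 libraries in all. Layers were cut by hand from thick slices, so each library holds all cell types of its piece of tissue, and LDeep pools several layers. The study calls the replicates of its MEC samples biological, but the labels name no animals, so p-values measure only the spread between these samples. Libraries held 3894334 to 11439143 counted read pairs (median 7569157.5), which makes 1 count worth 0.0874 to 0.257 CPM (counts scaled to a common library size).

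Serotonin reaches the entorhinal cortex through axons of the raphe nuclei in the brainstem and acts there through receptors of several families. Receptors of the Htr1 family couple to Gi/o proteins, lower cyclic AMP and open inwardly rectifying potassium channels, which dampens the cells or terminals that carry them. Receptors of the Htr2 family couple to Gq and phospholipase C, Htr4, Htr6 and Htr7 couple to Gs and raise cyclic AMP, and Htr3a forms a cation channel that serotonin opens directly.

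At P2, 3 MEC libraries stood apart from the labels they carry, and results that rest on them are given with and without them. The library labelled MEC LII P2 replicate 1 held 0.600 CPM of Slc17a7, the vesicular glutamate transporter of cortical excitatory neurons, against 237 to 695 CPM in the 17 P2 libraries other than these 3. It held 676 CPM of the inhibitory neuron gene Gad1 (75.5 to 155 in those 17) and 433 CPM of the transcription factor Zic1 (0.970 to 26.0). The library labelled MEC LII P2 replicate 3 held 445 CPM of Th, the rate-limiting enzyme of dopamine synthesis, where those 17 held 0.257 to 63.3. In the library labelled MEC LDeep P2 replicate 1 the meningeal collagen Col1a1 stood at 286 CPM, where the other MEC LDeep P2 libraries held 0.693 to 2.93. Its layer markers also lay outside their range, with Reln of layer II at 717 CPM (202 to 335) and Tle4 of deep layers at 207 (216 to 616). The MEC LII P2 libraries other than replicates 1 and 3 held 180 to 339 CPM of Col1a1, 947 to 1460 of Reln and 98.4 to 145 of Tle4. A further library, LEC LII P9 replicate 2, held 39.5 CPM of the myelin gene Mobp, where the other 15 P9 libraries held 0 to 0.202. The fits that leave out 1 replicate number at a time include one without replicate 2 of P9.

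Per length of the counted exons, Htr1b, Htr1a and Htr2a were the most abundant of the receptors. Median levels over the 64 libraries, in RPKM (CPM divided by exon length in kilobases), were 12.3 for Htr1b, 11.2 for Htr1a and 9.76 for Htr2a. Htr1b lay above Htr1a in 39 libraries and Htr1a above Htr2a in 35, so the order among these genes did not hold from library to library. A lower step followed, with Htr3a at 4.52 RPKM (below Htr2a in 60 of 64 libraries), Htr2c at 4.51 and Htr4 at 2.99. Htr3a exceeded Htr2c in 29 libraries and Htr2c exceeded Htr4 in 37, so these neighbours were not separated either. Htr1f at 0.818 RPKM, Htr6 at 0.809 and Htr1d at 0.405 formed the lowest step, with Htr4 above Htr1f in 51 libraries, Htr1f above Htr6 in 42 and Htr6 above Htr1d in 46. Htr2c ranged from 0.163 to 36.7 RPKM and Htr1a from 3.14 to 46.3. The highest Htr2c value belonged to the library labelled MEC LII P2 replicate 1, which stood apart from its label. At P45 alone the order was Htr1a (14 RPKM), Htr2c (12.1), Htr2a (9.39) and Htr1b (8.61). For Htr1a, Htr1b and Htr1d the annotation used for counting holds a single exon of coding length (1269, 1161 and 1125 bases), so reads from their untranslated ends were not counted.

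**Figure D1:**
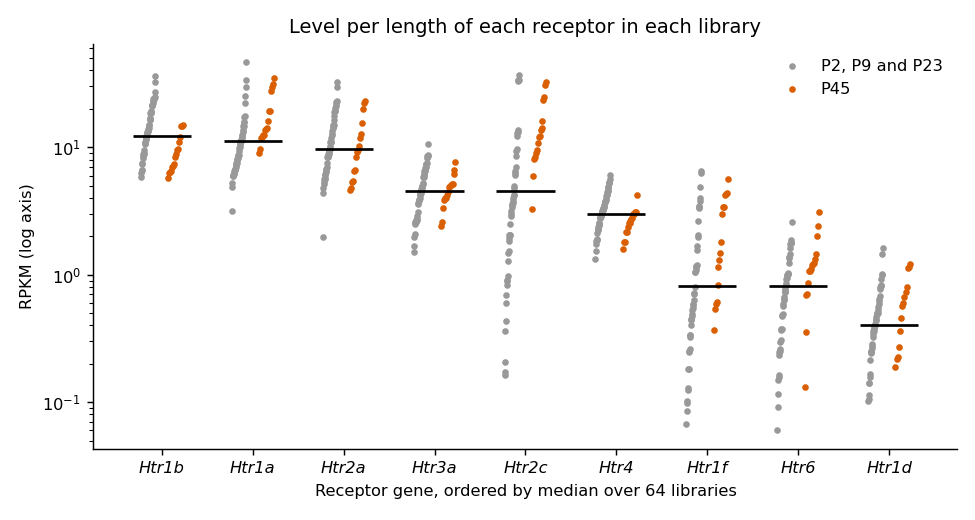
Level of each serotonin receptor gene in every library, in RPKM on a log axis, with P45 libraries in orange, the other ages in grey and the median over 64 libraries as a black line (libraries at 0, and Htr7, are not drawn). The medians of Htr1b, Htr1a and Htr2a lie between 9.76 and 12.3 RPKM. Htr2c spans 0.163 to 36.7, its top being the library labelled MEC LII P2 replicate 1.

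Of the 10 genes, 8 had enough counts to be tested, and most of these differed with age and between layers. The test was the edgeR quasi-likelihood test in 1 fit of all 16 groups, with p-values adjusted by the Benjamini-Hochberg method over 12521 genes and a gene called at an adjusted p under 0.05. Differences are log2 fold changes (LFC) with standard errors (SE), groups weighted equally. From P2/P9 to P23/P45, 6 of 8 receptors were called, where 81.6% of all genes tested were called: Htr1a, Htr1f, Htr2c and Htr6 rose (41% of all genes did) and Htr1b and Htr4 fell (40.6%). That share of receptors is near the background. Between LII and LDeep, 6 of 8 were called against a background of 54%, with Htr1a and Htr3a higher in LII (23.5% of all genes) and Htr1b, Htr1f, Htr2a and Htr6 lower in LII (30.5%). Between MEC and LEC, 4 of 8 were called against 15.4%, with Htr1a, Htr2c and Htr6 higher in MEC (8.87%) and Htr2a lower (6.53%). The median LFC of the 8 receptors was 0.34 for age, -0.40 for layer and 0.29 for region, beside 0.01, -0.05 and 0.01 over all genes tested. Without the 3 MEC P2 libraries the counts were 7 of 8 for age (82.7% of all genes), with Htr2a added as lower, 6 of 8 for layer (55.2%), and 4 of 8 for region (17.2%), with Htr3a lower in MEC in place of the Htr2c call. Within MEC the layer contrast called 7 of 8 receptors (40.8% of all genes) and within LEC 6 (38.6%), and the region contrast called 4 within LII (12.6%) and 2 within LDeep (5.78%). These counts use all libraries, and the 7 in MEC include Htr2c, whose MEC values moved most with the 3 MEC P2 libraries. In bulk tissue, fewer cells that express a gene and less RNA per cell cannot be told apart.

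**Figure D2:**
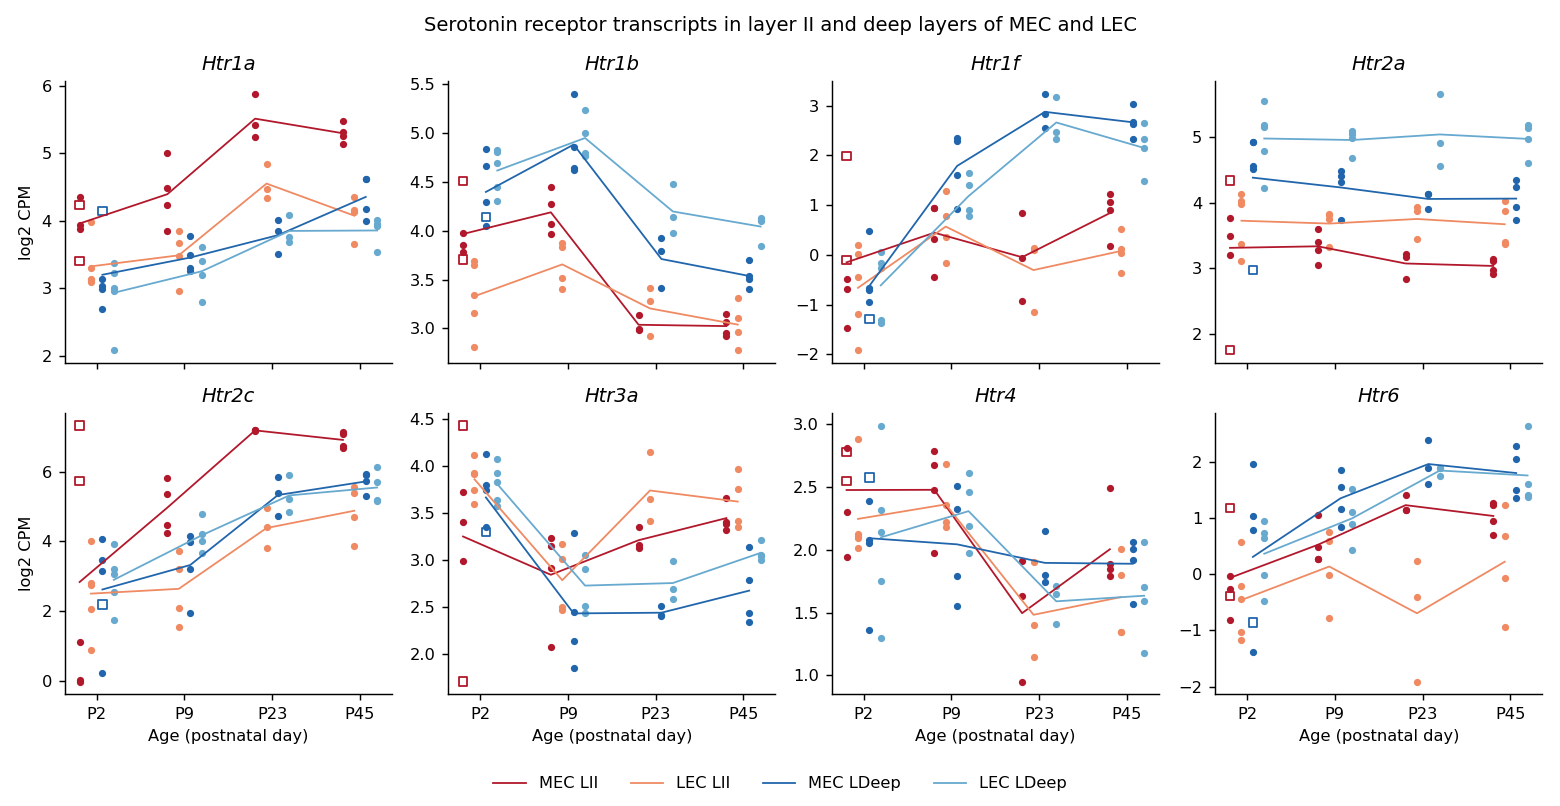
Log2 CPM of the 8 tested receptors against age, 1 point per library, with lines through the means of all libraries of MEC LII (red), LEC LII (orange), MEC LDeep (dark blue) and LEC LDeep (light blue), and open squares for the 3 MEC P2 libraries that stand apart. Htr2c climbs in every layer and region and reaches a mean of 7.04 in MEC LII at P23/P45, while Htr1b falls after P9.

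**Figure D3:**
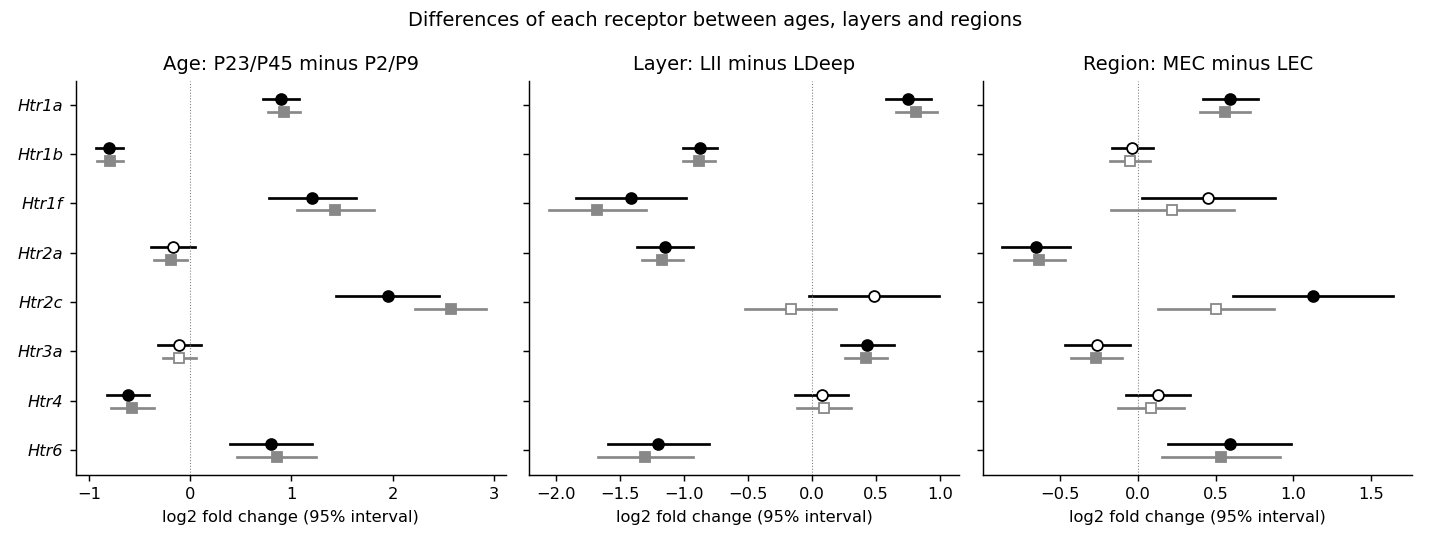
LFC of each receptor for age (P23/P45 minus P2/P9), layer (LII minus LDeep) and region (MEC minus LEC), with 95% intervals; black circles use all 64 libraries, grey squares leave out the 3 MEC P2 libraries that stand apart, and filled symbols have an adjusted p under 0.05. Htr2c is the receptor that moves most between these fits, from 1.95 to 2.57 for age, from 0.49 to -0.17 for layer and from 1.13 to 0.50 for region.

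The called changes with age lay before P23. From P2 to P9, 5 of 8 receptors were called, against 63.4% of all genes: Htr1a, Htr1b, Htr1f and Htr6 rose (31.6%) and Htr3a fell (31.8%). Without the 3 MEC P2 libraries, 6 of 8 were called at this step, against 65% of all genes, with Htr2c added as higher. From P9 to P23, 4 of 8 were called, against 64.6%: Htr1a and Htr2c rose (32.5%) and Htr1b and Htr4 fell (32.1%). From P23 to P45 the edgeR quasi-likelihood test called 0 of 8, and 0 had an unadjusted p under 0.05 (the lowest was 0.21, for Htr1b), where 3.85% of all genes were called. DESeq2 and limma voom called 0 receptors at this step as well. The LFCs from P23 to P45 ran from -0.13 to 0.22. Within single groups, P23/P45 against P2/P9 called 5 of 8 receptors in MEC LII (66.5% of all genes), 6 in MEC LDeep (66.2%), 4 in LEC LII (62.7%) and 6 in LEC LDeep (64.5%).

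Htr1a, an inhibitory receptor found on the raphe neurons themselves and on cortical pyramidal cells, rose with age in both layers of both regions and was highest in MEC LII. In MEC LII the 9 libraries of P2 and P9 lay at 3.40 to 5.01 log2 CPM (median 4.23), and the 7 of P23 and P45 at 5.14 to 5.88 (median 5.32). Each older MEC LII library exceeded each younger one. The LFC with age over all groups was 0.89 (SE 0.09, adjusted p = 3.2e-13, 1.86-fold), and within groups it was 1.20 in MEC LII, 0.73 in MEC LDeep, 0.90 in LEC LII and 0.75 in LEC LDeep, each called. Most of the rise fell between P9 and P23 (LFC 0.77, SE 0.13, adjusted p = 1.6e-06). The earlier step, 0.28 from P2 to P9 (adjusted p = 0.045), lost its call in 12 of the 16 fits that left out 1 replicate number of 1 age in all 4 dissections, with LFCs of 0.17 to 0.41 (it held only without replicates 1 and 5 of P2 or 2 and 4 of P9). With the replicate number as a block in limma voom it was 0.30 (adjusted p = 0.073).

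At P23 and P45 the 7 MEC LII libraries of Htr1a also stood above those of the other dissections. LEC LII held 3.66, 4.35 and 4.84 log2 CPM as its lowest, median and highest values, MEC LDeep 3.51, 4.01 and 4.62, and LEC LDeep 3.54, 3.93 and 4.09. MEC LII overlapped neither LEC LII nor MEC LDeep at these ages. LEC LII and LEC LDeep did overlap, although 6 of the 7 LEC LII libraries lay above all of LEC LDeep. The layer LFC was 1.10 in MEC (SE 0.13, adjusted p = 4e-10, 2.15-fold) and 0.40 in LEC (SE 0.13, adjusted p = 0.012, 1.32-fold). The LEC value, 0.33 to 0.46 over the 16 fits that left out a replicate number, lost its call without replicate 3 of P23. The difference between these, 0.70 (SE 0.18), had an adjusted p of 0.032, and 1.25% of all genes were called in that interaction. It lost its call in 10 of the 16 fits that left out 1 replicate number: replicate 2 of P2, replicates 3 and 4 of P9, and each replicate of P23 and P45 (0.61 to 0.81 over the 16 fits). Without the 3 MEC P2 libraries it was 0.80 (adjusted p = 0.0019). Between regions, Htr1a was 1.93-fold higher in MEC within LII (LFC 0.95, SE 0.13, adjusted p = 1.4e-07), whereas the LFC within LDeep was 0.24 (adjusted p = 0.35).

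Htr1b, the inhibitory receptor that sits mainly on axon terminals and limits transmitter release, was higher in LDeep than in LII and fell after P9. It was the receptor with the largest fall with age, and its promoter sequence is therefore shown (the 250 bases before its annotated start, RefSeq assembly GRCr8, chr8:91414816-91415065, minus strand). CpG dinucleotides are in capitals; there are 7, where the median promoter of this length has 5.

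Htr1b: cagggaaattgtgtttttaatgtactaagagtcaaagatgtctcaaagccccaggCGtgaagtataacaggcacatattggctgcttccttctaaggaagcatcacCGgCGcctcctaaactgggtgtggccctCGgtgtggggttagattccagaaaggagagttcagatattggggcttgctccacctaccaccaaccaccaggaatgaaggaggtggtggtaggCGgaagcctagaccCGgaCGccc

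Neither GGGCGG nor TATAAA, searched on both strands, occurs in these bases. Of 33469 promoters of the same length, 30.5% hold the first motif and 12.9% the second.

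In MEC LII the 9 younger libraries of Htr1b lay at 3.71 to 4.51 log2 CPM (median 3.98) and the 7 older ones at 2.92 to 3.15 (median 3.00). In MEC LDeep the younger libraries lay at 4.05 to 5.40 (median 4.65) and the older at 3.40 to 3.93 (median 3.54). Young and old did not overlap in either layer of MEC. In LEC LDeep the medians were 4.80 and 4.11, and in LEC LII 3.51 and 3.11. The age LFC was -0.80 (SE 0.07, adjusted p = 8.8e-16, 1.74-fold lower), made up of 0.34 from P2 to P9 (adjusted p = 0.00056) and -0.90 from P9 to P23 (adjusted p = 3.4e-11). The fall was larger in MEC, with -1.09 in MEC LII and -1.05 in MEC LDeep beside -0.39 in LEC LII and -0.67 in LEC LDeep. The difference between regions in the age effect was -0.54 (SE 0.13, adjusted p = 0.010), the one receptor of 8 called in an interaction that called 4.38% of all genes.

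The layer difference of Htr1b was present at each age. At P23 and P45 no LII library reached the level of any LDeep library of its region, with LII at 2.92 to 3.15 and LDeep at 3.40 to 3.93 log2 CPM in MEC, and LII at 2.78 to 3.41 and LDeep at 3.84 to 4.48 in LEC. The layer LFC was -0.87 (SE 0.07, adjusted p = 3.7e-16), and at single ages it was -0.86 (P2), -1.01 (P9), -0.86 (P23) and -0.77 (P45), each called. It was -0.60 in MEC and -1.15 in LEC. That difference between regions, 0.55 (SE 0.13, adjusted p = 0.020), lost its call in 3 of the 16 fits that left out a replicate number (replicates 1 and 3 of P23, replicate 3 of P45; 0.46 to 0.61) and without all P2 libraries (0.43, adjusted p = 0.15). Between MEC and LEC the overall LFC of Htr1b was -0.04, with a 95% interval of -0.17 to 0.09. Within LDeep it was -0.31 (SE 0.09, adjusted p = 0.027), lower in MEC, and within LII 0.24 (adjusted p = 0.11). The LDeep call was lost in 5 of the 16 fits that left out a replicate number (replicate 2 of P2, 3 of P9, 1 and 3 of P23, 3 of P45; -0.35 to -0.28).

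Htr1f, another Gi/o-coupled receptor of the family, became a gene of the deep layers during development. Its counts were low, 0 to 37 per library in LII and 1 to 74 in LDeep, and 1 library had none. In MEC LDeep the P2 replicates stood at -1.29, -0.94, -0.71, 0.48 and -0.66 log2 CPM, the P9 replicates at 2.34, 2.29, 0.91 and 1.61, the P23 replicates at 3.24, 2.56 and 2.83, and the P45 replicates at 2.67, 3.02, 2.33 and 2.63. In LEC LDeep the P2 replicates stood at -0.27, -1.31, -1.37, 0.05 and -0.17, and the P45 replicates at 2.15, 2.32, 2.64 and 1.48. Each library of P9 or later in LDeep lay above each P2 library there. In LII, values stayed between -1.91 and 1.99 at P2 and P9 (median -0.05) and between -1.16 and 1.22 at P23 and P45 (median 0.13).

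At P23 and P45 the 14 LDeep libraries of Htr1f (1.48 to 3.24 log2 CPM) all exceeded the 14 LII libraries. By age, the layer LFC was 0.77 at P2 (adjusted p = 0.27), -1.09 at P9 (adjusted p = 0.024), -3.21 at P23 (adjusted p = 3.8e-07) and -2.15 at P45 (adjusted p = 1.3e-05). The P9 value lost its call when any one of the 4 P9 replicate numbers was left out (-1.21 to -0.83 over 16 fits). The later layer difference minus the earlier one (P23/P45 against P2/P9), -2.52 (SE 0.43, adjusted p = 3.7e-05), was 1 of 2 among 8 receptors called in an interaction that called 8.8% of all genes. Without the 3 MEC P2 libraries, 3 of 8 were called there, against 12.4% of all genes, with Htr2c added. The rise with age was 2.49 in MEC LDeep (adjusted p = 1.1e-07) and 2.44 in LEC LDeep (adjusted p = 1.9e-07), beside 0.00 in MEC LII and -0.11 in LEC LII. Over all groups the age LFC of Htr1f was 1.20 (SE 0.22, adjusted p = 2.1e-06), and without all P2 libraries, which compares P23/P45 with P9, it was 0.36 (adjusted p = 0.094). The highest LII value at P2 and P9, 1.99, belonged to the library labelled MEC LII P2 replicate 1. Without the 3 MEC P2 libraries the layer LFC at P2 was -0.30 (adjusted p = 0.7), the age LFC in MEC LII was 0.99 (adjusted p = 0.047), and the later minus the earlier layer difference was -1.98 (SE 0.41, adjusted p = 0.00045).

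Htr1d, which like Htr1b acts mainly on axon terminals, was close to the limit of detection. It had 261 counts over all 64 libraries, with a median of 3, a highest value of 12 and 5 libraries at 0, and it did not pass the filter on low counts. In a fit of edgeR's quasi-likelihood test without that filter its LFCs were -0.34 for age, -0.35 for layer and -0.66 for region (adjusted p = 0.26, 0.30 and 0.089), so no difference was detectable at this depth.

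Htr2a, the Gq-coupled receptor of cortical pyramidal cells at which serotonergic hallucinogens act, was higher in LDeep than in LII and higher in LEC than in MEC, with no called change with age. Over all ages the 16 LEC LII libraries lay at 3.10 to 4.14 log2 CPM (median 3.83) and the 16 LEC LDeep libraries at 4.23 to 5.66 (median 5.02). The layers of LEC did not overlap. In MEC at P23 and P45, LII lay at 2.83 to 3.21 (median 3.11) and LDeep at 3.74 to 4.34 (median 4.13), which did not overlap either. Between layers the LFC was -1.15 (SE 0.11, adjusted p = 6.2e-13, 2.23-fold lower in LII), with -1.14, -1.10, -1.18 and -1.18 at P2, P9, P23 and P45, each called.

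The regions were also apart in Htr2a at P23 and P45. LEC LII lay at 3.37 to 4.03 log2 CPM and LEC LDeep at 4.56 to 5.66, above all MEC libraries of the same layer. The region LFC was -0.66 (SE 0.11, adjusted p = 1.1e-05, 1.58-fold lower in MEC). In LDeep it was -0.81 (SE 0.15, adjusted p = 0.00017). In LII it was -0.50 (adjusted p = 0.032), a call lost in 7 of the 16 fits that left out a replicate number (replicate 2 of P2, replicates 1 and 3 of P9, 1 and 2 of P23, and 3 and 4 of P45; -0.62 to -0.46). The lowest Htr2a value of LII, 1.75, was in the library labelled MEC LII P2 replicate 1, and the lowest of LDeep, 2.97, in that labelled MEC LDeep P2 replicate 1. The age LFC was -0.17 (SE 0.11, adjusted p = 0.16, 95% interval -0.38 to 0.05), and without the 3 MEC P2 libraries -0.19 (SE 0.08, adjusted p = 0.031).

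Htr2c, the Gq-coupled receptor whose transcript is edited and which is known for its high level in the choroid plexus, had the largest LFC with age among the receptors. Its promoter is shown for that reason (RefSeq assembly GRCr8, chrX:115452940-115453189, plus strand, CpG in capitals). With 15 CpG dinucleotides in 250 bases it holds more than the 7 of Htr1b, and neither GGGCGG nor TATAAA occurs on either strand.

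Htr2c: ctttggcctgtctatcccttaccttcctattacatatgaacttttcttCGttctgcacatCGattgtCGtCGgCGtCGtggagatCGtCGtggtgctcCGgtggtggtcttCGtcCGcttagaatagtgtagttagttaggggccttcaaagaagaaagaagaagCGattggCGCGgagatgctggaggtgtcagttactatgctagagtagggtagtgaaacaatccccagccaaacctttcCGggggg

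In MEC LII at P2 the 5 replicates of Htr2c stood at 7.33, -0.03, 5.74, 0.02 and 1.11 log2 CPM. The first and the third are the libraries labelled replicates 1 and 3 that stood apart above. The P9 replicates stood at 4.46, 5.36, 5.84 and 4.23, the P23 replicates at 7.21, 7.20 and 7.17, and the P45 replicates at 7.15, 6.75, 6.69 and 7.08. Apart from those 2 libraries, MEC LII thus went from 1.11 or less at P2 to between 4.23 and 5.84 at P9 and 6.69 or more later, with no overlap between P2/P9 and P23/P45. In MEC LDeep the medians were 3.20 at P2/P9 and 5.75 at P23/P45, in LEC LII 2.75 and 4.70, and in LEC LDeep 3.68 and 5.22. Young and old libraries did not overlap in either LDeep group.

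The age LFC of Htr2c was 1.95 (SE 0.26, adjusted p = 1.6e-09, 3.87-fold) with all libraries, and 2.57 (SE 0.18, adjusted p = 6.1e-19, 5.94-fold) without the 3 MEC P2 libraries. In MEC LII alone these were 1.77 (SE 0.49, adjusted p = 0.0013) and 4.34 (SE 0.41, adjusted p = 3e-13, 20.2-fold). In the other groups the age LFC with all libraries was 2.27 in MEC LDeep, 1.90 in LEC LII and 1.87 in LEC LDeep, each called. The step from P2 to P9 was 0.34 (adjusted p = 0.42) with the 3 libraries and 1.59 (SE 0.28, adjusted p = 1.9e-06) without them, and the step from P9 to P23 was 1.67 (SE 0.39, adjusted p = 0.00017) and 1.66 (adjusted p = 2.8e-08).

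At P23 and P45, Htr2c in MEC LII exceeded every library of the other dissections. The 7 MEC LII libraries lay at 6.69 to 7.21 log2 CPM (103 to 147 CPM), LEC LII at 3.80 to 5.56, MEC LDeep at 4.73 to 5.94 and LEC LDeep at 4.84 to 6.13. The region LFC within LII was 2.38 (SE 0.38, adjusted p = 6e-06, 5.21-fold), 1.08 (SE 0.31, adjusted p = 0.013) without the 3 libraries and 2.25 (adjusted p = 7.4e-09) without all P2 libraries. Within LDeep it was -0.13 (SE 0.37, adjusted p = 0.94, 95% interval -0.85 to 0.59). The layer LFC was 1.74 in MEC (SE 0.36, adjusted p = 1e-04) and -0.77 in LEC (SE 0.38, adjusted p = 0.11), a difference of 2.51 (SE 0.52, adjusted p = 0.0041). Without the 3 libraries that difference was 1.17 (SE 0.38, adjusted p = 0.11), and without all P2 libraries, which leaves P9 to P45, 2.45 (SE 0.34, adjusted p = 1.1e-05). The layer LFC of 1.74 in MEC thus includes the P2 libraries that stood apart. With all P2 libraries left out, the layer LFC was 1.53 in MEC (SE 0.23, adjusted p = 1.1e-06). In LEC it was then -0.92 (SE 0.24, adjusted p = 0.0025), a called difference. At P2 the layer LFC of Htr2c was 1.05 (adjusted p = 0.14) with the 3 libraries and -1.60 (SE 0.45, adjusted p = 0.0053) without them. Its later minus its earlier layer difference was -0.24 (adjusted p = 0.86) with them and 1.09 (SE 0.36, adjusted p = 0.039) without them. Of the 8 receptors, Htr1a, Htr1b and Htr2c were the 3 called in the layer by region interaction with all libraries, where 1.25% of all genes were called. Without the 3 MEC P2 libraries 2 of 8 were called there, Htr2c not among them, against 1.93% of all genes.

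The level of the choroid plexus was followed beside Htr2c because that tissue carries the gene. At P23/P45 the 10 choroid plexus markers summed to 21.6 to 57.5 CPM (median 30.3) in MEC LII. In LEC LII at these ages they summed to 14.7 to 40.8 CPM (median 27.3). In LDeep they summed to 1.60 to 13.9 CPM in MEC and 1.55 to 5.31 in LEC. Of 7 choroid markers tested, 5 were higher in LII than in LDeep, where 23.5% of all genes were. In the layer by region interaction edgeR called 0 of them at an adjusted p under 0.05, and 1.25% of all genes. At that share, 7 genes are too few to tell whether the choroid plexus part differed between regions. Of single markers, Otx2 was at 0 in 62 of 64 libraries, Clic6 in 27 and Folr1 in 21, and Ttr reached at most 42.0 CPM. The other markers are given only within the sums. In the library labelled MEC LII P2 replicate 1, where Htr2c was at its highest, Folr1 stood at 15.4 CPM and Ttr at 9.40. The part of these cells in the Htr2c values was not tested.

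**Figure D4:**
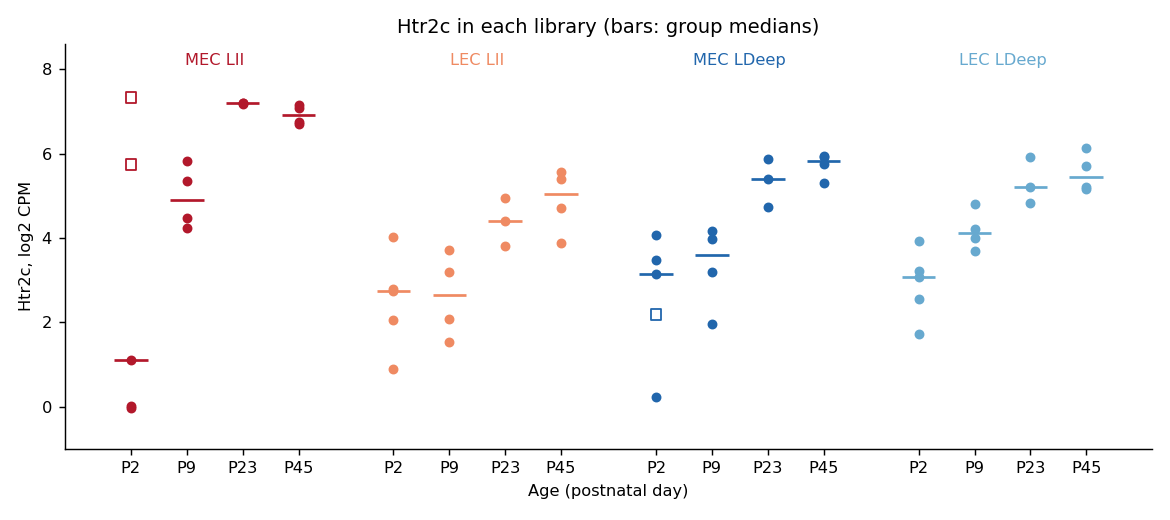
Log2 CPM of Htr2c in each library of the 16 groups, with bars at the group medians and open squares for the 3 MEC P2 libraries that stand apart. The 7 MEC LII libraries of P23 and P45 lie between 6.69 and 7.21, and at P2 the libraries labelled MEC LII replicates 1 and 3 (7.33 and 5.74) lie above the other 3 (-0.03 to 1.11).

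Htr3a, the subunit of the serotonin-gated cation channel that in cortex is carried by interneurons from the caudal ganglionic eminence, fell from P2 to P9 and later became higher in LII. The 20 P2 libraries lay at 1.71 to 4.43 log2 CPM (median 3.74) and the 16 P9 libraries at 1.86 to 3.28 (median 2.71). Of the P2 libraries, 18 lay above every P9 library. The one P2 library below all of P9 was that labelled MEC LII P2 replicate 1. The step from P2 to P9 was an LFC of -1.0 (SE 0.14, adjusted p = 2.4e-08, 2.00-fold lower), and it was -1.0 without the 3 MEC P2 libraries too. Levels were higher again at P23 (median 3.06) and P45 (median 3.27), and the step from P9 to P23 was 0.30 (adjusted p = 0.099, and 0.032 without the 3 libraries). The contrast of P23/P45 with P2/P9 averages over this course and came to -0.11 (SE 0.11, adjusted p = 0.35, 95% interval -0.32 to 0.10). Within MEC LDeep it was called, at -0.58 (adjusted p = 0.019), except without replicate 4 of P9 or replicate 2 of P45 (-0.65 to -0.36 over the 16 fits). Without all P2 libraries it was 0.0204 (adjusted p = 0.95) there. Over all groups, with the P2 libraries left out, the contrast was 0.38 (adjusted p = 0.002).

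In the older libraries, those of P23 and P45, Htr3a lay at 3.13 to 4.15 log2 CPM (median 3.41) in LII and at 2.34 to 3.21 (median 2.74) in LDeep, and 12 of 14 LII libraries exceeded all LDeep libraries. By age, the layer LFC was -0.08 at P2 (adjusted p = 0.81), 0.21 at P9 (adjusted p = 0.46), 0.92 at P23 (adjusted p = 0.0033) and 0.68 at P45 (adjusted p = 0.011). The P23 call was lost without replicate 2 of P23 (0.80 to 1.01 over the 16 fits) and the P45 call without replicate 3 of P45 (0.59 to 0.71). From P2/P9 to P23/P45 this difference changed by 0.73 (SE 0.21, adjusted p = 0.021). That call was lost in 5 of the 16 fits that left out a replicate number (replicate 4 of P9, 2 and 3 of P23, 2 and 3 of P45; 0.61 to 0.84) and without all P2 libraries (0.56, adjusted p = 0.16). Between MEC and LEC the LFC was -0.26 (SE 0.11, adjusted p = 0.089), and -0.27 (SE 0.08, adjusted p = 0.020) without the 3 libraries. With the replicate number as a block in edgeR it was -0.30 (adjusted p = 0.017). Of the 11 interneuron markers, 2 were higher (23.5% of all genes) and 5 lower (30.5%) in LII. Together they summed to 821 to 1176 CPM in LII and 1144 to 1536 CPM in LDeep at P23/P45. The list pools general markers such as Gad1 with those of single kinds such as Vip, Sst and Pvalb. Its sum therefore does not show the level of the kind that carries Htr3a. The part of interneurons in the Htr3a values was not tested.

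At single ages, the layer contrast called 3 of 8 receptors at P2 (Htr1a, Htr1b and Htr2a) against 19.2% of all genes. It called 5 at P9 (33%), 6 at P23 (25.9%) and 6 at P45 (26.4%). The Htr6 call at P9 (-0.99, adjusted p = 0.043) was lost in 9 of the 16 fits that left out a replicate number (replicate 2 of P2, each of P9 and P23, 3 of P45; -1.13 to -0.92).

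**Figure D5:**
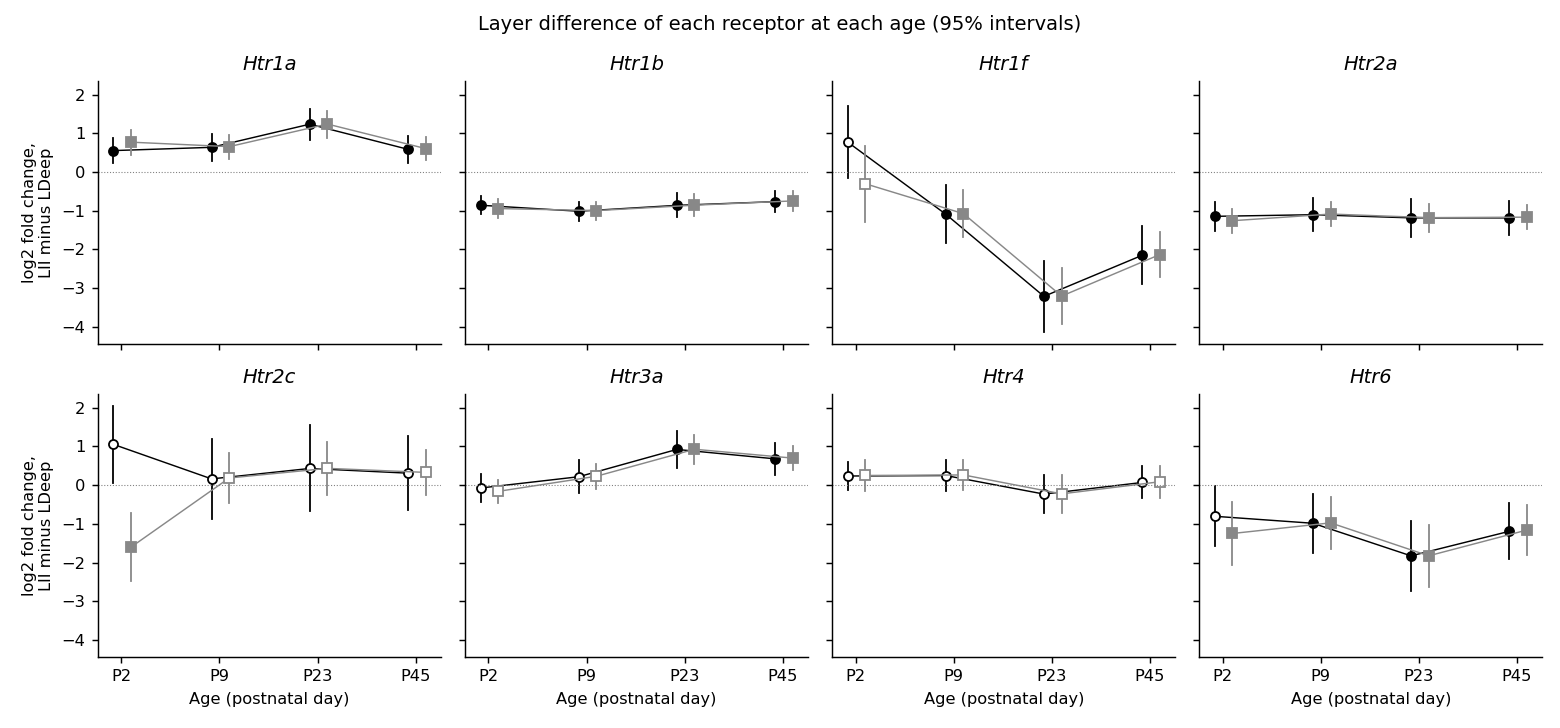
LFC between LII and LDeep of each receptor at the ages P2 to P45, with 95% intervals; black circles use all libraries, grey squares leave out the 3 MEC P2 libraries that stand apart, and filled symbols have an adjusted p under 0.05. Htr1b and Htr2a stay below 0 at every age, Htr1f goes from 0.77 at P2 to -3.21 at P23, and Htr3a from -0.08 to 0.92.

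Htr4, a Gs-coupled receptor, fell with age and was called in no contrast of layers or regions. The 36 libraries of P2 and P9 lay at 1.30 to 2.99 log2 CPM (median 2.26) and the 28 of P23 and P45 at 0.95 to 2.49 (median 1.77). The ranges overlapped over all groups, but not within LEC LII. The age LFC was -0.61 (SE 0.11, adjusted p = 7.6e-07, 1.53-fold lower), with a step of -0.73 from P9 to P23 (SE 0.16, adjusted p = 8.7e-05) after 0.04 from P2 to P9 (adjusted p = 0.82). Within groups it was -0.77 in MEC LII, -0.78 in LEC LII and -0.68 in LEC LDeep, each called, and -0.22 in MEC LDeep (adjusted p = 0.35). The layer LFC was 0.08, with a 95% interval of -0.13 to 0.28, and the region LFC was 0.13 (adjusted p = 0.48). With limma voom after quantile normalization the layer LFC was -0.29 (adjusted p = 0.024), of the opposite sign.

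Htr6, a Gs-coupled receptor found largely in the brain, was a low-count gene of the deep layers that rose with age. Counts ran from 0 to 43 per library, with 1 library at 0. At P23 and P45 the 14 LDeep libraries lay at 1.36 to 2.64 log2 CPM (median 1.82) and the 14 LII libraries at -1.91 to 1.4 (median 0.82), and 13 of the LII libraries lay below all of LDeep. Between layers the LFC was -1.20 (SE 0.20, adjusted p = 1.2e-06, 2.30-fold lower in LII), with -0.84 in MEC (adjusted p = 0.0088) and -1.57 in LEC (adjusted p = 3.1e-05). The age LFC was 0.80 (SE 0.21, adjusted p = 0.0005, 1.74-fold), called in MEC LII (0.94), MEC LDeep (0.99) and LEC LDeep (1.22), while LEC LII gave 0.04 (adjusted p = 0.96).

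The step of Htr6 from P2 to P9, 0.67 (SE 0.28, adjusted p = 0.031), lost its call in 5 of the 16 fits that left out a replicate number (replicates 1 and 5 of P2 and 1, 2 and 4 of P9; 0.50 to 0.87). Its call between regions, 0.59 (SE 0.20, adjusted p = 0.037, 1.51-fold higher in MEC), was lost in 9 of them (replicates 2 and 4 of P2, 1 to 3 of P9, 1 and 2 of P23, 1 and 3 of P45; 0.52 to 0.71). The age call in MEC LII was lost in 8 of the 16 (replicate 5 of P2, 2 and 4 of P9, each of P23, 1 and 2 of P45; 0.84 to 1.29), and that in MEC LDeep without replicate 2 of P23 (0.82 to 1.26). Without all P2 libraries neither was called (0.68 and 0.60, adjusted p = 0.14 and 0.12).

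Htr7, the remaining Gs-coupled receptor, had 1 count in all, with 63 of 64 libraries at 0. The annotation lists it at 2 places, on chromosome 1 (254549214-254671596, rn6) and on the unplaced sequence Un_KL568473v1 (279934-399299), and read pairs that mapped to more than 1 place were not counted, so its level cannot be read from these counts. On the same build the other receptors lie at chr2:36246628-36247896 (Htr1a, plus strand), chr8:89129652-89130812 (Htr1b, minus), chr5:154800226-154801350 (Htr1d, plus), chr11:1982113-1983513 (Htr1f, minus), chr15:56666152-56732469 (Htr2a, plus), chrX:118084890-118318040 (Htr2c, plus), chr8:53211438-53223804 (Htr3a, minus), chr18:57654290-57778914 (Htr4, plus) and chr5:157503040-157518511 (Htr6, minus). Htr1b and Htr3a thus share chromosome 8, and Htr1d and Htr6 chromosome 5.

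The cell types of the dissections moved with the same contrasts. Between layers, 10 of 10 deep-layer neuron markers were lower and 4 of 4 layer II neuron markers higher in LII, as the labels say. Of 12 meningeal markers, 11 were higher and 1 lower in LII (284 to 1744 CPM summed in LII and 102 to 262 in LDeep at P23/P45), 9 of 9 endothelial and mural markers were higher, and 0 of 6 oligodendrocyte markers were higher with 4 lower. With age, 6 of 6 oligodendrocyte markers rose, from 94.6 to 844 CPM summed at P2/P9 to 772 to 16286 at P23/P45. The 844 CPM belonged to LEC LII P9 replicate 2, and the other LEC LII P9 replicates held 136, 144 and 120. The 6 glutamatergic markers went from 136 to 1643 CPM summed to 1938 to 3501, with 3 higher and 3 lower. Slc17a7 and Neurod6, both among them, stood at 0.600 and 0.400 CPM in the library labelled MEC LII P2 replicate 1. Without the 3 MEC P2 libraries that stand apart, 2 of the 6 were higher, 3 lower and 1 not called. The part of these cell types in the receptor differences was not tested.

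The genes that make, store, take up and degrade serotonin changed in both directions with age. Among 10 such genes, 3 rose (41% of all genes did), 5 fell (40.6%) and 2 were not called, a share near the background. Slc6a4, the plasma membrane serotonin transporter, was 8.54-fold lower at P23/P45 (LFC -3.09, adjusted p = 8.5e-10), Slc18a2, the vesicular monoamine transporter, 8.05-fold lower (LFC -3.01, adjusted p = 5.8e-08) and Slc29a4, a low-affinity monoamine transporter, 8.92-fold lower (LFC -3.16, adjusted p = 2.1e-32). Slc18a2 was at 92.6 and 164 CPM in the libraries labelled MEC LII P2 replicates 1 and 3, where the 17 other P2 libraries held 0.383 to 11, and its LFC without the 3 libraries was -2.48. Maob, a monoamine-degrading enzyme, rose 6.30-fold (LFC 2.65, adjusted p = 1.5e-27), whereas Maoa had an LFC of 0.03 (adjusted p = 0.61). Slc18a1, the vesicular monoamine transporter of endocrine cells, rose 2.49-fold (LFC 1.32, adjusted p = 3.9e-05). Ddc, which makes serotonin from its precursor, had an LFC of -0.07 (adjusted p = 0.81), and 0.38 (adjusted p = 0.011) without the 3 MEC P2 libraries. Tph2, the neuronal enzyme of serotonin synthesis, was 1.21-fold higher at P23/P45 (LFC 0.27, adjusted p = 0.042). For Tph2 this contrast averages over a mean level that rose from P2 to P9 and was lower again at P45 (values under other observations). Tph1, the counterpart of Tph2 outside neurons, and the uptake transporter Slc22a3 fell (LFC -1.10 and -0.66, adjusted p = 0.020 and 3.8e-05). Between layers 3 of the 10 were higher in LII (Tph1, Slc22a3 and Maob, LFC 1.4, 0.46 and 0.49) and 1 lower (Maoa, -0.19), and without the 3 MEC P2 libraries Ddc was lower too (-0.43, adjusted p = 0.0068). Between regions Tph2 was higher in MEC (LFC 0.60, adjusted p = 0.00031), and Slc22a3 (-0.53) and Slc29a4 (-0.41) were lower.

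The other serotonin receptors and the downstream genes changed in both directions. Htr5a and Htr5b, the remaining Htr genes with enough counts, both rose with age (1.74-fold and 2.62-fold) and were lower in LII (LFC -0.21 and -0.66), and Htr5b was 2.90-fold higher in MEC (LFC 1.54, adjusted p = 6.3e-15) where Htr5a gave -0.12 (adjusted p = 0.33). Htr2b and Htr3b did not pass the filter. Of 20 tested G protein and effector genes, 7 rose and 8 fell with age, 4 were higher and 9 lower in LII, and 5 were higher and 2 lower in MEC. All genes were called at 81.6% for age, 54% for layer and 15.4% for region, so the shares for age and layer are near the background. The subunits of inwardly rectifying potassium channels Kcnj9, Kcnj3 and Kcnj6, onto which the Htr1 receptors couple, rose 3.57-, 3.08- and 2.30-fold with age. The G protein genes Gnai3, Gnal and Gnaq fell 2.74-, 2.31- and 1.61-fold. In LII the phospholipase Plcb3 was 1.65-fold higher and Plcb1 1.52-fold lower. Of 11 partners of the receptors (scaffolds, arrestins and editing enzymes), 7 rose and 4 fell with age (81.6% of all genes were called), among them Adarb1, an enzyme that edits Htr2c RNA (1.97-fold higher), and S100a10, an adaptor of Htr1b and Htr4 (3.82-fold lower).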

How the data were processed

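RNA of 64 dissected samples had been sequenced after ribosomal depletion with the stranded TruSeq kit. The authors used Trimmomatic 0.33 for trimming, STAR 2.4.0 for alignment to rn6, and counted read pairs per gene with featureCounts of Subread 1.4.6-p1, strand-specific and without multi-mapping pairs. The deposited values are raw counts per gene, not normalized. In this annotation several receptors lack untranslated exons, which lowers their counts.

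From the counts, the quasi-likelihood test of edgeR 4.0.16 in R 4.3.3 was run with TMM library sizes on the 12521 genes left by its filter on low counts, with 16 group means and no block, and Benjamini-Hochberg adjustment over all genes tested. CPM (log2, prior count 2) and RPKM (with the exon length in the files) were also computed from the counts. Limma 3.58.1 and DESeq2 1.42.0 were alternatives, as were other size factors, no filter, each region alone, and leaving out replicates. The pipeline was tested on simulated data. No 2 of the 100 replicate pairs held identical values.

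Groups, ages and replicate numbers came from the sample labels. The receptors, the pathway and marker lists and the tests were chosen with earlier results of these data known. Named were all 10 receptors, the other serotonin receptors, all genes of synthesis to breakdown, up to 3 genes per direction with the largest change among the called genes of the other pathway lists, and the 3 genes most like each receptor.

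The labels do not say whether samples of an age with the same replicate number come from 1 animal; the study numbers the layers of its miRNA samples by animal. Deviations from group means correlated on average by 0.133 for same-numbered layers of a region, 0.126 for regions of a layer and 0.143 across both, and by -0.045 to -0.039 for other numbers. Over 0.1 were 17, 18 and 20 of 32 pairs each, and 19, 22 and 18 of 100 pairs with different numbers. Samples of 1 number may thus be related. If so, the main fit, which has no block, overstates the number of independent samples for age. Fits with a block are given below as alternatives. With counts summed per replicate number, 30 of 32 values of the age contrasts were unchanged in call, 1 lost its call and 1 gained one.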

Additional observations from a re-analysis of the deposited data

Results flagged for a closer look

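Single libraries stood apart from the others of their group in 8 of 108 groups of 4 or 5 libraries, where chance gives about 1 in 20. For Htr1a these were LEC LII P2 replicate 5 at 3.98 log2 CPM (the others 3.09 to 3.30) and LEC LDeep P45 replicate 1 at 3.54 (3.93 to 4.01). The same LEC LDeep P45 library was the lowest for Htr1b, at 3.84 (4.10 to 4.13). For Htr2a they were LEC LII P9 replicate 4 at 3.32 (3.75 to 3.83) and the library labelled MEC LDeep P2 replicate 1 at 2.97 (4.52 to 4.93). For Htr4 they were LEC LII P2 replicate 3 at 2.88 (2.02 to 2.13) and MEC LII P45 replicate 1 at 2.49 (1.79 to 1.89). For Htr1d, MEC LII P9 replicate 3 stood at -1.38 with 1 count (-0.39 to -0.27).

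Effects that differed between groups by edgeR's test of the difference itself were those of Htr1f and Htr3a for layer over age (LFC -2.52 and 0.73), of Htr2c, Htr1a and Htr1b for layer between regions (2.51, 0.70 and 0.55), and of Htr1b for age between regions (-0.54).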

How the results depend on the processing

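Settings were compared over 72 values each (8 receptors, 9 contrasts). All 72 kept direction and side of the threshold with DESeq2's size factors in edgeR, without the filter on low counts and with the DESeq2 Wald test. After TMM and quantile normalization in limma voom 66 did, 4 lost their call, 1 gained one and 1 was reversed. The reversed value was the Htr4 layer LFC, which turned to -0.29. The 4 calls lost under this normalization are not marked in the results above. With the replicate number as a block, 39 of 40 values were unchanged in call (edgeR; the region LFC of Htr3a, -0.30, became called, adjusted p = 0.017) and 70 of 72 with duplicateCorrelation (Htr1a from P2 to P9 lost its call, 0.30); 42 of 64 samples correlated best with their own number. From P2 to P9 the 5 calls became 3 in MEC alone and 3 in LEC alone. The 2 layer by age calls became 1 in MEC alone and 1 without all P2 libraries (4.84% of all genes). In LEC alone the layer LFC of Htr2c was -0.75. Leaving out 1 replicate number at a time (or the library labelled MEC LII P2 replicate 1 alone) gave 3 to 6 calls from P2 to P9, 1 to 2 for layer by age and 1 to 3 for layer by region. All of these fits hold fewer libraries (32 in a fit of 1 region). Where no share of all genes stands beside a count, a loss of calls is no result about the receptors.

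Leaving out the 3 MEC P2 libraries, or all P2 libraries, was chosen after seeing the data. Without the 3, region by age called 2 receptors (1 higher and 1 lower, 6.35% of all genes) instead of 1 (4.38%). Htr2c turned to 1.09 for layer by age and -1.60 for layer at P2, and Htr1f to 0.99 for age in MEC LII. Without all P2 libraries the age LFC of Htr3a was 0.38, and 0.0204 in MEC LDeep, and the Htr1f age call was lost (0.36). Depth limits Htr1d, Htr1f and Htr6, whose low values rest on a few counts; the cause of the other shifts was not tested.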

Other observations

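The genes whose group means ran most like those of each receptor over the 16 groups (Pearson r of mean log2 CPM, genes with a mean of at least 1 CPM) are given as a description. All genes were measured in the same libraries, and age moves most genes. For Htr2c they were Nrip3 (r = 0.964), the histamine receptor gene Hrh2 (0.951) and the cation channel gene Trpc6 (0.941). For Htr1f they were the actin-bundling gene Lcp1 (0.960), Rgs18 (0.926) and Stambpl1 (0.925), and for Htr1a Fgf9 (0.951), Arhgef6 (0.945) and Cdc14a (0.938). For Htr2a, Sgcz (0.939), Figf (0.924) and Etv1 (0.917) came first, of which Etv1 is a transcription factor of deep-layer projection neurons. Htr3a ran most like Tp53i11 (0.956), Mapkapk2 (0.937) and Kirrel (0.898), and Htr1b most like Zfp346 (0.928), Pomgnt1 (0.925) and Msl1 (0.922). Htr4, which fell with age, ran most like Plk4 (0.907), Epcam (0.899) and Mastl (0.893), of which Plk4 and Mastl act in cell division. Htr6 ran most like Ralgapa1 (0.920), Taf1 (0.916) and Etnk1 (0.914).

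Htr5b, which is no member of the 10 receptors above, had a pattern over region and layer of its own. Its mean level was 3.37 log2 CPM in MEC LII, 3.41 in MEC LDeep, 2.63 in LEC LDeep and 1.20 in LEC LII. Tph2 averaged 0.63 log2 CPM in P2 libraries, 2.16 in those of P9, 2.07 in those of P23 and 1.20 in those of P45, although its mRNA is known mainly from the raphe nuclei.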
